A study of Homo sapiens with 6 samples.

Results

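Peroxisomes are small organelles bounded by a single membrane. Apart from ABCD4, placed in lysosomes, the 27 genes described here encode proteins that build peroxisomes or work in them. They are 13 peroxins, PEX proteins that assemble the organelle and import its enzymes, and 14 enzymes and transporters, mostly for lipids and peroxide. They were chosen by name, with earlier results of the comparison below in view, so their differences between groups are given as a description and support nothing by themselves. All 27 were found among the 26902 gene symbols of the table, and 25 passed the filter on low values. RNA had been sequenced from HMCB, an established human melanoma cell line whose NRAS genotype the labels give as Q61K, a mutation carried by both groups. A total of 3 libraries came from cells transfected with a control siRNA (siNC) and 3 from cells transfected with an siRNA against AHCYL1 (siAHCYL1), all taken 3 days after transfection. All 6 libraries are from 1 cell line. The sample titles call the 3 of each group biological replicates and do not say how these were kept apart, so errors and p-values measure the spread between these libraries.

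Matrix enzymes are made in the cytosol and carry short import signals, which the receptors PEX5 and PEX7 recognise. The receptors dock on a membrane complex that contains PEX13 and PEX14 and release their cargo inside. A ubiquitin ligase that contains the RING-finger peroxins PEX2 and PEX10 then marks PEX5, and an ATPase complex that contains PEX6, anchored by PEX26, pulls it back out. PEX3, PEX16 and PEX19 insert membrane proteins, and PEX11A and PEX11G act in division. Inside, very long and branched fatty acids are shortened by beta-oxidation, phytanic acid by alpha-oxidation, and the first steps of ether lipid (plasmalogen) synthesis take place. The oxidases produce hydrogen peroxide, which catalase breaks down.

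The upstream sequences of 3 members are shown because these genes were among the risen members: PEX6 and PEX26, the export ATPase and its anchor, and CAT, catalase. Each is the 250 bases before the annotated start in RefSeq (GRCh38.p14), 5′ to 3′ on the gene's strand. Capitals mark CCGGAAG, a core recognised by ETS-family factors, or its reverse complement in PEX6 and PEX26, and CCAAT boxes on either strand in CAT. The windows are chr6:42979182-42979431 on the minus strand for PEX6, chr22:18077740-18077989 on the plus strand for PEX26 and chr11:34438684-34438933 on the plus strand for CAT.
PEX6: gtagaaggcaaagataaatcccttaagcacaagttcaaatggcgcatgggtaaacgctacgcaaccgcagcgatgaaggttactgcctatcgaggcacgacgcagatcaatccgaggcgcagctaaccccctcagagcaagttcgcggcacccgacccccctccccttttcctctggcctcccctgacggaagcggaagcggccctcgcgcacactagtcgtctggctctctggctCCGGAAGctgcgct
PEX26: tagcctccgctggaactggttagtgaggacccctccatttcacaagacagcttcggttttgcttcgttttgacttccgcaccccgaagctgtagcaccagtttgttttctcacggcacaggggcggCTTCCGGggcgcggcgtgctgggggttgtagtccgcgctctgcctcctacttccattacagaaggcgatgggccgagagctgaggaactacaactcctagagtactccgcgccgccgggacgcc
CAT: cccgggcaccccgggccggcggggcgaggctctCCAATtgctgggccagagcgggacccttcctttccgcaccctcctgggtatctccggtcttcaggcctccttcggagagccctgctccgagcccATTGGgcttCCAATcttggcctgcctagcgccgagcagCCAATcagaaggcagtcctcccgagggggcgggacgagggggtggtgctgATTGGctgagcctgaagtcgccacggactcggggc

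The table of upstream windows held 22 of the 27 members and lacked ACAA1, ACOX2, ECH1, PEX2 and PEX14. A total of 7 motifs were counted on both strands. CCGGAAG was present in 7 of the 22 members and in 10.2% of all 27305 genes with a window. The 7 were PEX5, PEX6, PEX11A, PEX16, PEX26, ABCD4 and GNPAT, of which 5 rose and PEX5 and PEX11A did not pass the test. Beside these 5, 13 of all 25 tested members and 30.4% of all tested genes were higher. The 13 include PEX2 and ECH1, which had no window to search. The 27305 genes were not limited to those expressed in these cells, so the shares do not compare expressed genes with each other. CCAAT was present in 7 of 22 members against 37.0% of all genes, with 5 matches in CAT. The GC box GGGGCGGGG was in 6 of 22 against 17.9%, the E-box CACGTG in 4 of 22 against 7.73% and the cyclic AMP element TGACGTCA in 1 of 22, ACOX3, against 2.03%. AGGTCA, the core read by nuclear receptors such as the PPARs, was in 1 of 22, AGPS, against 14.6%. A direct repeat of AGGTCA with 1 base between the copies, which contains the single core, was in 0 of 22 and in 0.022% of all genes. These are matches of letters, and no binding was measured.

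Levels are given in TPM, the transcript share of each gene scaled to a fixed library total, which divides by transcript length and so allows genes to be compared. Differences are log2 fold changes of TPM + 1, siAHCYL1 minus siNC, with their standard error (SE) from limma, and this scale understates the change of low genes. A gene was called higher or lower at a Benjamini-Hochberg adjusted p under 0.05 over the 13266 genes that reached 1 TPM in 3 or more libraries. Over all of these genes 51.6% were called, 30.4% higher and 21.2% lower, and the groups did not overlap in 59.2%. Of the calls 58.9% were higher, against 48.1% with quantile normalization. The median log2 fold change of all tested genes was 0.06. Each library summed to a fixed total, which leaves the sequencing depth unknown, and between 13035 and 13189 genes reached 1 TPM. AHCYL1 itself was at 131 to 150 TPM in siNC and at 10.97 to 13.45 TPM in siAHCYL1, which is 8.56% of the control mean (log2 fold change -3.44, SE 0.096, limma adjusted p = 5.64e-08; exact permutation p = 0.1, the smallest that 3 against 3 allows).

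Cell identity was described from lists of known markers, which were named after their values were seen. SOX10, the neural crest and melanocyte transcription factor, was at a mean of 1037 TPM in siNC and 1009 TPM in siAHCYL1, and MITF at 10.99 and 9.72 TPM. TYR, tyrosinase, was at 0 in every library and MLANA averaged under 1 TPM, so these late pigment markers were nearly absent. Of the 10 melanocyte markers 8 passed the filter, 3 higher and 3 lower. DCT, a pigment enzyme, fell from a mean of 11.4 to 0.34 TPM (log2 fold change -3.23, limma adjusted p = 1.14e-06), and the receptor EDNRB (-0.69) and the transcription factor PAX3 (-0.44) fell. S100B rose from 10.7 to 28.98 TPM (1.35), and TYRP1 (0.87) and PMEL (0.64) rose from under 2 TPM. The call of PMEL was lost without siNC replicate 2 or 3 and without any 1 siAHCYL1 library (0.42 to 0.69). The summed level of the list, 1117 to 1147 TPM in siNC and 1073 to 1125 TPM in siAHCYL1, is mostly SOX10.

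Markers of other cell types were mostly at or near 0. Of 6 fibroblast markers 2 passed the filter: LUM rose from 14.0 to 28.96 TPM (log2 fold change 1.00) and COL1A1 fell from 2.18 to 0.49 TPM (-1.09). The list summed to 15.3 to 17.9 TPM in siNC and 26.1 to 32.4 TPM in siAHCYL1, with PDGFRA and THY1 at 0 throughout. Of 7 immune and blood markers 2 passed: PTPRC rose from 3.45 to 8.55 TPM (1.09) and HBA1 fell from 18.0 to 6.35 TPM (-1.36). Their list summed to 14.5 to 28.5 and 11.4 to 17.7 TPM, mostly HBA1 in siNC, with CD3E and HBB at 0. Of 6 endothelial markers 2 passed, and EGFL7 (-0.86) and KDR (-0.45) fell, with sums of 56.6 to 70.9 and 34.3 to 38.5 TPM and VWF at 0. The call of KDR was lost without siNC replicate 2 (-0.36) or siAHCYL1 replicate 2 (-0.40). Of 6 epithelial markers only KRT10 could be tested and it did not pass (0.25, limma adjusted p = 0.33), but it was called higher without siNC replicate 3 (0.48). That list summed to 12.3 to 23.6 and 16.7 to 22.9 TPM, with KRT1, KRT5 and CDH1 at 0. The part of these marker differences in the results below was not tested.

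Of the 25 members that passed the filter, 13 were called higher and 1, ABCD3, lower after the AHCYL1 siRNA, and 11 did not pass. The 14 called members stand beside 51.6% of all tested genes called, and the 13 higher ones beside 30.4%. Among the peroxins 6 of 12 were higher and 0 lower, and among the enzymes and transporters 7 of 13 were higher and 1 lower. The groups did not overlap in 15 of the 25 members, the 14 called ones and PEX7, beside 59.2% of all tested genes. The median log2 fold change was 0.29, with a range from -0.57 (ABCD3) to 0.91 (PEX6). Because the choice of members used this contrast, nothing is read from these counts against the background. The summed level of the peroxins was 267 to 273 TPM in siNC and 323 to 336 TPM in siAHCYL1, and that of the enzymes and transporters 684 to 708 and 754 to 839 TPM. In RNA from whole cultures, fewer cells expressing a gene and less of its RNA per cell cannot be told apart.

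**Figure D1:**
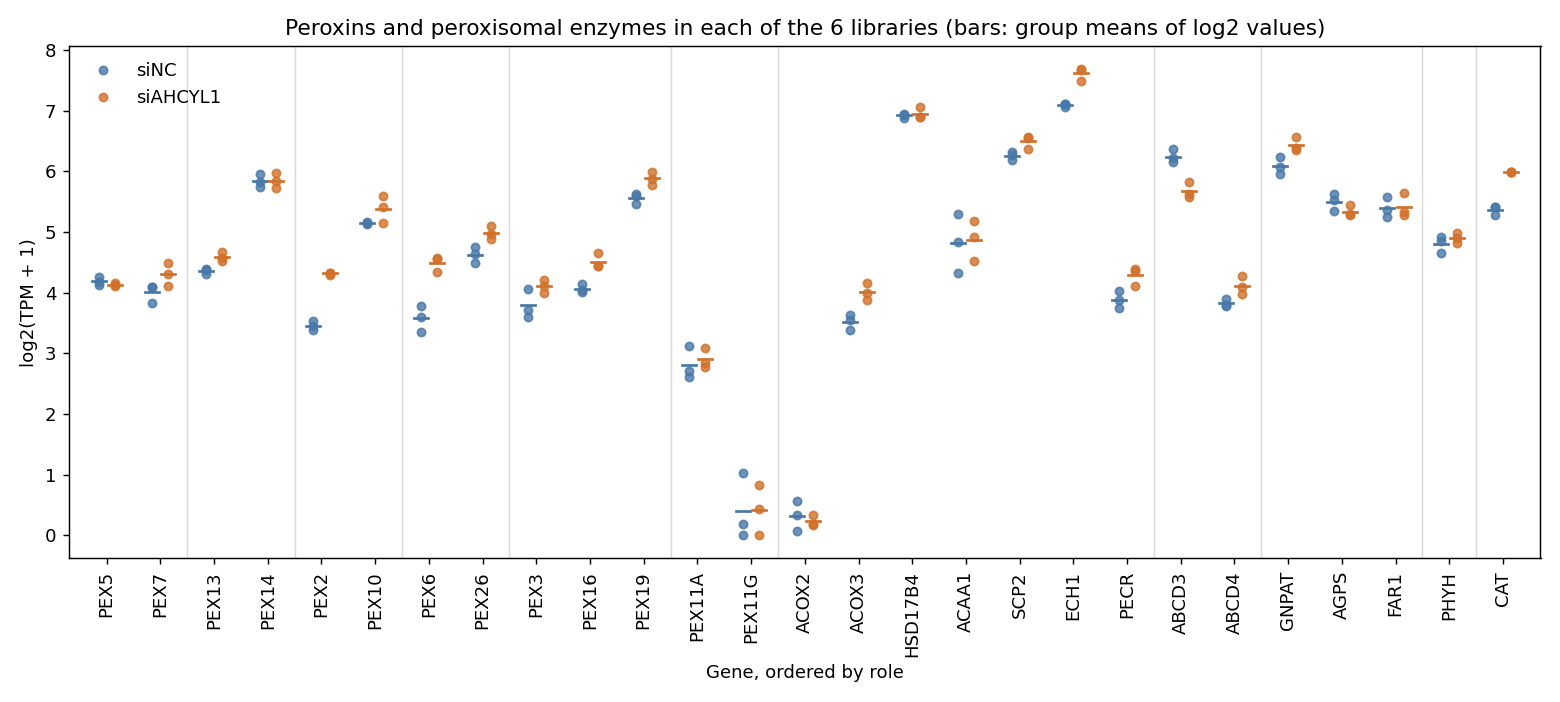
Level of each of the 27 members in each library as log2(TPM + 1), in role order, with the 3 siNC libraries in blue, the 3 siAHCYL1 libraries in orange and bars at the group means. PEX2, PEX6, ECH1 and CAT sit higher in all siAHCYL1 libraries, ABCD3 sits lower, and PEX11G and ACOX2 lie near 0 in both groups.

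The members spanned a wide range of levels. In siNC the most abundant were ECH1 (135.9 TPM), HSD17B4 (120.6 TPM), SCP2 (75.8 TPM) and ABCD3 (75.1 TPM), and the last 2 did not differ beyond their spread. At the other end PEX2 had 9.97 TPM and PEX11A 6.08 TPM. The 2 members under the filter were ACOX2, an oxidase of branched fatty acids and bile acid intermediates best known from liver, and PEX11G. ACOX2 was at 0.48, 0.26 and 0.05 TPM in siNC and at 0.12, 0.26 and 0.14 TPM in siAHCYL1. PEX11G was at 0.14, 1.03 and 0 TPM in siNC and at 0, 0.35 and 0.77 TPM in siAHCYL1. Both were thus at most near 1 TPM in every library, and no fold change is given for them.

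Neither import receptor passed the test. PEX5, which binds the C-terminal import signal carried by most matrix enzymes, had 16.53, 17.18 and 18.13 TPM in siNC and 16.36, 16.44 and 16.78 TPM in siAHCYL1 (log2 fold change -0.06, SE 0.087). The ranges overlapped. PEX7, which binds the N-terminal signal of a few enzymes such as ACAA1, AGPS and PHYH, had 13.23, 16.01 and 16.05 TPM in siNC and 16.29, 18.90 and 21.36 TPM in siAHCYL1 (0.30, SE 0.12). Its lowest siAHCYL1 library was just above its highest siNC library. The ratio of PEX5 to PEX7 within a library was 1.07 to 1.25 in siNC and 0.786 to 1.00 in siAHCYL1. PEX7 was called higher without siAHCYL1 replicate 1 (0.40).

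Of the docking pair, PEX13 rose and PEX14 did not pass. PEX13, an SH3-domain membrane peroxin, had 20.00, 19.72 and 18.89 TPM in siNC and 24.41, 22.81 and 22.02 TPM in siAHCYL1 (log2 fold change 0.23, SE 0.084). The groups lay apart by a small margin, and the call was lost without any 1 of the 6 libraries (0.19 to 0.26). PEX13 shares 293 exonic bases with PUS10 on the opposite strand, which was at 3.68 to 4.55 TPM over all libraries. PEX14, the docking protein for cargo-loaded receptor, had 52.41, 55.99 and 60.82 TPM in siNC and 52.07, 61.62 and 56.69 TPM in siAHCYL1 (0.01, SE 0.087), so its ranges overlapped almost fully. PEX14 overlaps exons of DFFA on the opposite strand over 204 bases, and the libraries do not keep strand. DFFA was at 67.1 to 79.1 TPM in siNC and 87.1 to 105.05 TPM in siAHCYL1.

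Of the RING ligase members, PEX2 rose and PEX10 did not pass. PEX2 rose to 1.90 times the control mean, from 10.55, 9.41 and 9.94 TPM in siNC to 18.62, 19.12 and 19.05 TPM in siAHCYL1 (log2 fold change 0.86, SE 0.093). The siAHCYL1 libraries had a coefficient of variation of 1.43% and lay far above siNC. PEX10 had 34.03, 34.97 and 34.65 TPM in siNC and 34.47, 41.84 and 47.09 TPM in siAHCYL1 (0.23, SE 0.11) and did not pass. Its siAHCYL1 libraries spread widely, replicate 1 lay inside the control range, and it was called higher without that library (0.35). PEX10 shares 1481 exonic bases with RER1 on the opposite strand, which was at 108.03 to 120.45 TPM in siNC and 138.88 to 149.33 TPM in siAHCYL1, so PEX10 reads are uncertain here.

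Of the export machinery, PEX6 and its anchor PEX26 rose. PEX6, on chromosome 6 at 42963865 to 42979181 of GRCh38, had 9.20, 12.70 and 11.18 TPM in siNC and 19.19, 22.63 and 22.80 TPM in siAHCYL1 (log2 fold change 0.91, SE 0.13). Every siAHCYL1 library was well above every siNC library. PEX26, on chromosome 22 at 18077990 to 18105396, had 26.10, 23.85 and 21.35 TPM in siNC and 33.49, 28.67 and 30.15 TPM in siAHCYL1 (0.36, SE 0.10), with groups that lay apart. The ratio of PEX6 to PEX26 within a library was 0.353 to 0.533 in siNC and 0.573 to 0.789 in siAHCYL1. PEX26 overlaps TUBA8 on the same strand over 1349 exonic bases, and TUBA8 was at 0.32 to 1.31 TPM in all libraries.

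**Figure D2:**
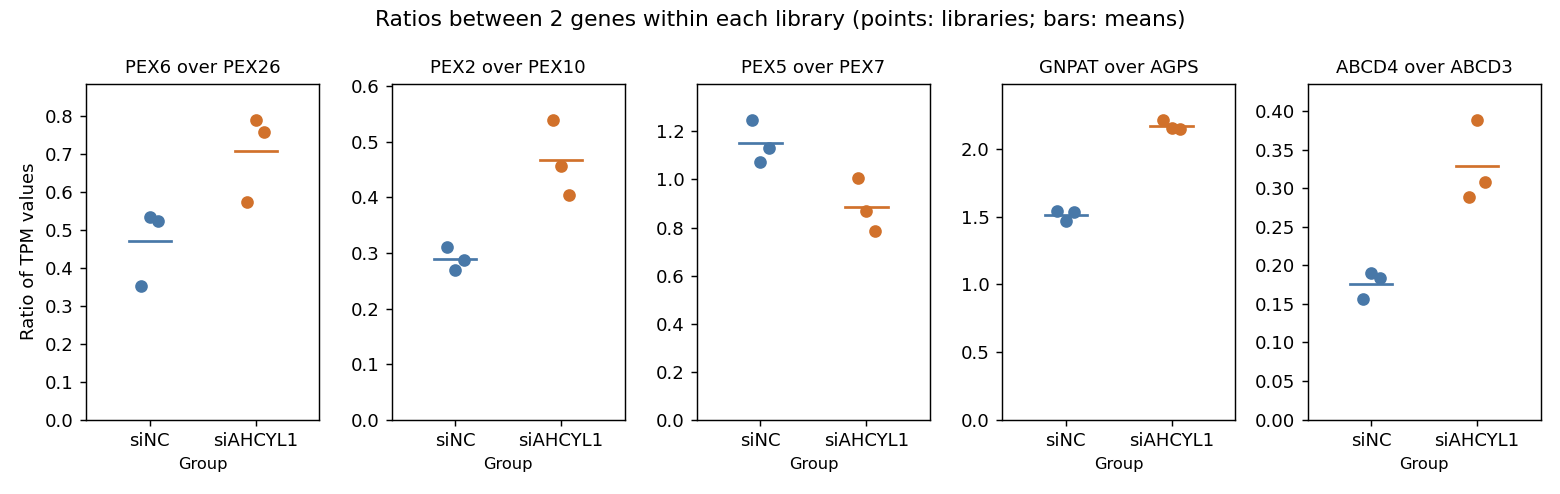
Ratio of TPM values between pairs of genes within each library, with points for the 3 libraries of each group and bars at their means. PEX6 over PEX26 was 0.353 to 0.533 in siNC and 0.573 to 0.789 in siAHCYL1, and the groups lie apart in all 5 panels. The ratios are a description with no test.

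Of the 3 membrane-insertion peroxins, PEX16 and PEX19 rose. PEX16, the membrane receptor that recruits PEX3, had 16.60, 15.43 and 15.09 TPM in siNC and 20.64, 24.19 and 20.81 TPM in siAHCYL1 (log2 fold change 0.45, SE 0.097). PEX19, the farnesylated chaperone of membrane proteins, had 47.12, 48.44 and 43.30 TPM in siNC and 62.74, 57.79 and 54.12 TPM in siAHCYL1 (0.32, SE 0.081). For both genes every siAHCYL1 library was above every siNC library. PEX3, the docking site for PEX19, had 15.68, 11.06 and 12.19 TPM in siNC and 17.56, 16.29 and 14.95 TPM in siAHCYL1 (0.32, SE 0.13) and did not pass. Its siNC replicate 1 lay above the lowest siAHCYL1 library, and PEX3 was called higher without it (0.45).

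Of the division peroxins, PEX11A did not pass and PEX11G was under the filter. PEX11A, the inducible form, had 5.07, 7.67 and 5.50 TPM in siNC and 7.52, 5.84 and 6.18 TPM in siAHCYL1 (log2 fold change 0.10, SE 0.16), with overlapping ranges.

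Catalase was among the members with the largest rises. CAT, the heme enzyme that degrades hydrogen peroxide, lies on chromosome 11 at 34438934 to 34472060. It had 41.55, 41.74 and 38.07 TPM in siNC and 62.55, 62.41 and 62.37 TPM in siAHCYL1, 1.54 times the control mean (log2 fold change 0.62, SE 0.070). The siAHCYL1 libraries were nearly identical to each other and lay well above the highest control.

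The tested enzymes of fatty acid oxidation and related steps split into ones that rose and ones that did not pass. ECH1, an isomerase of unsaturated fatty acid intermediates found in peroxisomes and mitochondria, had 136.91, 132.95 and 137.84 TPM in siNC and 203.63, 204.99 and 178.77 TPM in siAHCYL1 (log2 fold change 0.52, SE 0.069). ACOX3, an oxidase of branched acyl-CoAs, had 9.41, 11.33 and 10.66 TPM in siNC and 16.83, 13.73 and 15.03 TPM in siAHCYL1 (0.50, SE 0.11). PECR, a trans-2-enoyl-CoA reductase, had 13.78, 12.39 and 15.34 TPM in siNC and 19.93, 16.36 and 19.62 TPM in siAHCYL1 (0.40, SE 0.12). In all 3 genes the groups lay apart. The call of PECR was lost without siNC replicate 2 (0.33) and without siAHCYL1 replicate 3 (0.37). PECR shares 137 exonic bases with MREG on the same strand, at 13.44 to 15.06 TPM in siNC and 11.78 to 14.07 TPM in siAHCYL1.

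SCP2, which encodes the thiolase for branched chains and the sterol carrier protein, had 72.19, 78.62 and 76.60 TPM in siNC and 92.74, 93.45 and 82.17 TPM in siAHCYL1 (log2 fold change 0.23, SE 0.074). Its call was lost without siNC replicate 1 (0.20) or 3 (0.24) and without siAHCYL1 replicate 1 (0.21) or 2 (0.20). HSD17B4, the bifunctional D-specific enzyme that hydrates and then dehydrogenates the chain, had 123.06, 121.69 and 116.91 TPM in siNC and 132.59, 118.91 and 117.78 TPM in siAHCYL1 (0.03, SE 0.068), and the ranges overlapped. ACAA1, the straight-chain thiolase, had 19.13, 27.43 and 38.31 TPM in siNC and 22.06, 35.20 and 29.28 TPM in siAHCYL1 (0.06, SE 0.23). ACAA1 varied most among the 25 tested members, with a coefficient of variation of 34.0% in siNC and 22.8% in siAHCYL1, and replicate 1 was the lowest library in each group. With such a spread, a difference of the size seen for SCP2 was not detectable for ACAA1.

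The ABC transporters went in opposite directions. ABCD3, also called PMP70, carries branched and long-chain acyl-CoAs into the organelle and is one of its most abundant membrane proteins. It had 81.52, 73.50 and 70.20 TPM in siNC and 55.46, 46.93 and 48.28 TPM in siAHCYL1, 66.9% of the control mean (log2 fold change -0.57, SE 0.088). Every siAHCYL1 library was below every control. ABCD4, a family member placed in lysosomes and known for cobalamin export, had 12.71, 13.94 and 12.88 TPM in siNC and 16.03, 18.26 and 14.85 TPM in siAHCYL1 (0.29, SE 0.10). Its call was lost without any 1 of the 3 siNC libraries (0.27 to 0.33) and without siAHCYL1 replicate 1 (0.30) or 2 (0.21).

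The 3′ untranslated region (UTR) of ABCD3 holds the 7-mer GTATGCA, which an earlier look at these data had tied to lower fold changes. In the 11790 tested genes with a UTR searched, 7.46% carried it. Of the carriers 40.2% were lower and 20.3% higher, against 21.0% lower and 31.0% higher of the other genes. Because the 7-mer was picked from these same data, this contrast is a description and supports nothing by itself. Carriers and other genes were not matched for UTR length. Of the 25 tested members 3 carried it, ABCD3, AGPS and PEX13, each once. Their sites are shown, with 10 bases on each side and the 7-mer in capitals, because they include the only fallen member. They are copied 5′ to 3′ from GENCODE release 29 transcripts (GRCh38).
ABCD3: aatgcactgaGTATGCAatgctatcac
AGPS: atatatatatGTATGCAtgtgtgtgtg
PEX13: ctaaattacgGTATGCAttatctggtg

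Of the 3 sites, the one in ABCD3 is followed by A. ABCD3 fell, AGPS did not pass and PEX13 rose, so the carriers did not share a direction. The part of the 7-mer in the fall of ABCD3 was not tested.

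Ether lipid synthesis starts with 3 members, and GNPAT was the one that rose. GNPAT, the acyltransferase of the first step, had 74.62, 66.07 and 61.11 TPM in siNC and 94.25, 82.38 and 81.06 TPM in siAHCYL1 (log2 fold change 0.35, SE 0.092), with groups that lay apart. AGPS, the next enzyme, which forms the ether bond, had 48.39, 45.06 and 39.78 TPM in siNC and 42.52, 38.28 and 37.78 TPM in siAHCYL1 (-0.16, SE 0.092) and overlapped. The ratio of GNPAT to AGPS was 1.47 to 1.54 in siNC and 2.15 to 2.22 in siAHCYL1. FAR1, which supplies the fatty alcohol, had 46.65, 40.15 and 37.24 TPM in siNC and 49.27, 39.14 and 37.84 TPM in siAHCYL1 (0.02, SE 0.12). Replicate 1 was the highest library of each group for GNPAT, AGPS and FAR1. AGPS was called lower under median-of-ratios scaling (-0.22) and quantile normalization (-0.26). AGPS shares 54 exonic bases with NFE2L2 on the opposite strand, which was at 155 to 198 TPM in siNC and 105 to 138 TPM in siAHCYL1. It also shares 220 with TTC30B on the opposite strand, at 6.59 to 10.54 TPM in siNC and 5.5 to 8.87 TPM in siAHCYL1.

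PHYH, the hydroxylase that starts the alpha-oxidation of phytanic acid, had 27.81, 24.20 and 29.11 TPM in siNC and 30.72, 27.37 and 29.01 TPM in siAHCYL1 (log2 fold change 0.10, SE 0.094). The ranges overlapped. ACAA1, AGPS and PHYH, the cargo of PEX7 in this list, thus all failed to pass the test.

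**Figure D3:**
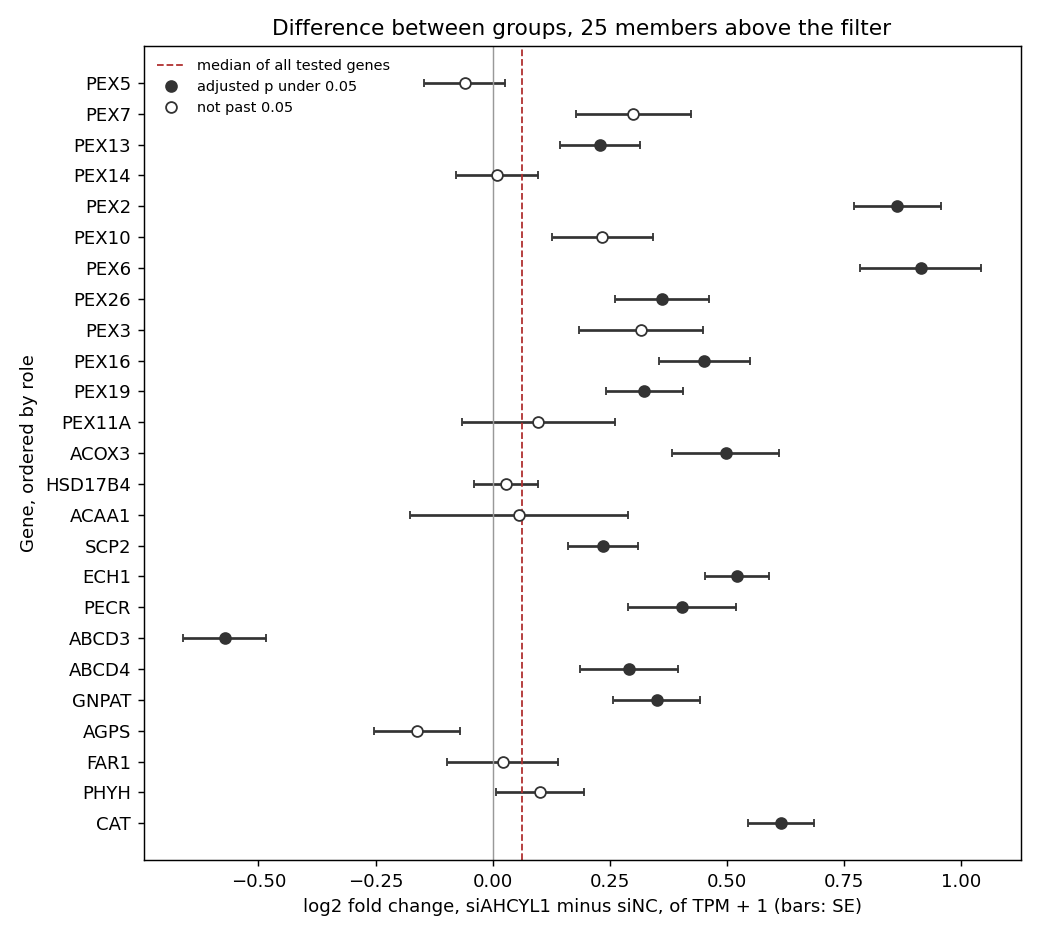
Log2 fold change of TPM + 1, siAHCYL1 minus siNC, with its SE for the 25 members above the filter, filled where the adjusted p was under 0.05 and with the median of all tested genes as a dashed line. PEX6 (0.91), PEX2 (0.86) and CAT (0.62) lie farthest to the right and ABCD3 (-0.57) farthest to the left.

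Peroxisomal genes outside the 27 members were read in the same fit from 61 names, of which 60 were in the table and 50 passed the filter. Of these 50, 20 rose (40.0%, against 30.4% of all genes), 4 fell and 26 stayed short of the threshold. Their median log2 fold change was 0.21, against 0.06 for all genes. These lists, and the mitochondrial one below, were also chosen with earlier results of these data known. Nothing is therefore read from their counts or medians against the background. Beside every list count here and below stand the shares over all tested genes, 30.4% higher and 21.2% lower. With the 6 regulators described below, 22 of 56 rose and 6 fell. Of 12 other beta-oxidation genes 7 rose and 1 fell. CRAT, carnitine acetyltransferase, rose from 39.0 ± 0.93 to 73.3 ± 3.30 TPM (SD, n = 3; 0.89, limma adjusted p = 1.04e-05). DECR2, the peroxisomal dienoyl-CoA reductase (0.64, limma adjusted p = 0.000202), and the matrix protease LONP2 (0.59, limma adjusted p = 0.000341) rose. SLC27A2, a very long-chain acyl-CoA synthetase, was low and fell from 2.64 ± 0.51 to 0.80 ± 0.21 TPM (-1.01, limma adjusted p = 0.00148).

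Of 12 other matrix enzymes 4 rose and 1 fell. GSTK1, a glutathione transferase of peroxisomes and mitochondria (0.74, limma adjusted p = 3.40e-05), and MLYCD, malonyl-CoA decarboxylase (0.74, limma adjusted p = 0.00135), rose. IDH1, the NADP-dependent isocitrate dehydrogenase of cytosol and peroxisomes, fell from 216.8 ± 13.4 to 152.1 ± 11.2 TPM (-0.51, limma adjusted p = 0.00044). Of 5 alpha-oxidation and ether lipid genes 0 rose and HACL1, the lyase that acts after PHYH, fell (-0.33, limma adjusted p = 0.0355). The call of HACL1 was lost without any 1 of the siNC libraries and without siAHCYL1 replicate 2 or 3 (-0.25 to -0.33).

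Of 9 membrane and contact-site genes 4 rose and 0 fell. ACBD5, which tethers peroxisomes to the ER (log2 fold change 0.63, limma adjusted p = 0.000908), its relative ACBD4 (0.78, limma adjusted p = 0.00619) and MPV17 (0.52, limma adjusted p = 0.000175) rose. MPV17 was listed by name, and whether its protein lies in peroxisomes was not examined. PXMP4 rose too (0.41, limma adjusted p = 0.0293), and its call was lost without siNC replicate 1 or 3 and without siAHCYL1 replicate 1 or 2 (0.33 to 0.42). Of 9 fission and pexophagy genes 3 rose and 1 fell. NBR1, a receptor for autophagy of peroxisomes (0.47, limma adjusted p = 0.000416), and TRIM37, a ubiquitin ligase that acts on PEX5 (0.42, limma adjusted p = 0.00226), rose. MFF, a receptor for the fission GTPase, rose (0.29, limma adjusted p = 0.0462), and the autophagy receptor SQSTM1 fell (-0.18, limma adjusted p = 0.0234). The call of MFF was lost without any 1 siNC library and without siAHCYL1 replicate 1 (0.16 to 0.32), and that of SQSTM1 without siNC replicate 1 or 2 and siAHCYL1 replicate 2 or 3 (-0.15 to -0.19).

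Of the 6 nuclear receptors and coactivators known to control peroxisomal genes, 2 were higher and 2 lower, beside 30.4% and 21.2% of all genes. PPARA, the receptor that drives fatty acid oxidation genes, had 4.92, 5.74 and 5.61 TPM in siNC and 18.97, 15.96 and 15.25 TPM in siAHCYL1, 3.08 times the control mean (log2 fold change 1.46, SE 0.12, limma adjusted p = 1.47e-05). Its coactivator PPARGC1A rose from 11.1 ± 0.75 to 18.5 ± 2.70 TPM (SD, n = 3; 0.69, limma adjusted p = 0.00115), and PPARGC1B, at 1.72 ± 0.22 TPM, fell to 0.74 ± 0.08 TPM (-0.64, limma adjusted p = 0.0109). PPARD fell from 104.6 ± 4.89 to 81.1 ± 2.59 TPM (-0.36, limma adjusted p = 0.00148). PPARG (0.02, limma adjusted p = 0.918) and RXRA (0.11, limma adjusted p = 0.214) did not pass. The level of PPARA in siAHCYL1 remained below that of PPARD in every library.

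Mitochondrial beta-oxidation, which handles shorter chains, was read beside these lists. Of 17 genes 11 rose and 1 fell, beside 30.4% higher and 21.2% lower of all tested genes. Their median log2 fold change was 0.36, against 0.06 for all tested genes. ACADVL, the very long-chain acyl-CoA dehydrogenase, had 64.93, 57.91 and 68.23 TPM in siNC and 215.79, 233.33 and 228.66 TPM in siAHCYL1 (1.81, SE 0.075, limma adjusted p = 4.97e-07). ECI1, the mitochondrial enoyl-CoA isomerase, had 28.50, 33.93 and 44.79 TPM in siNC and 107.07, 122.31 and 108.95 TPM in siAHCYL1 (1.65, limma adjusted p = 1.89e-05). ACADM (0.71, limma adjusted p = 2.02e-05) and DECR1 (0.79, limma adjusted p = 5.58e-05) rose, and ECHS1 fell (-0.24, limma adjusted p = 0.00562). These rises of ACADVL and ECI1 were larger than that of any peroxisomal member, a difference between genes that was not tested.

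**Figure D4:**
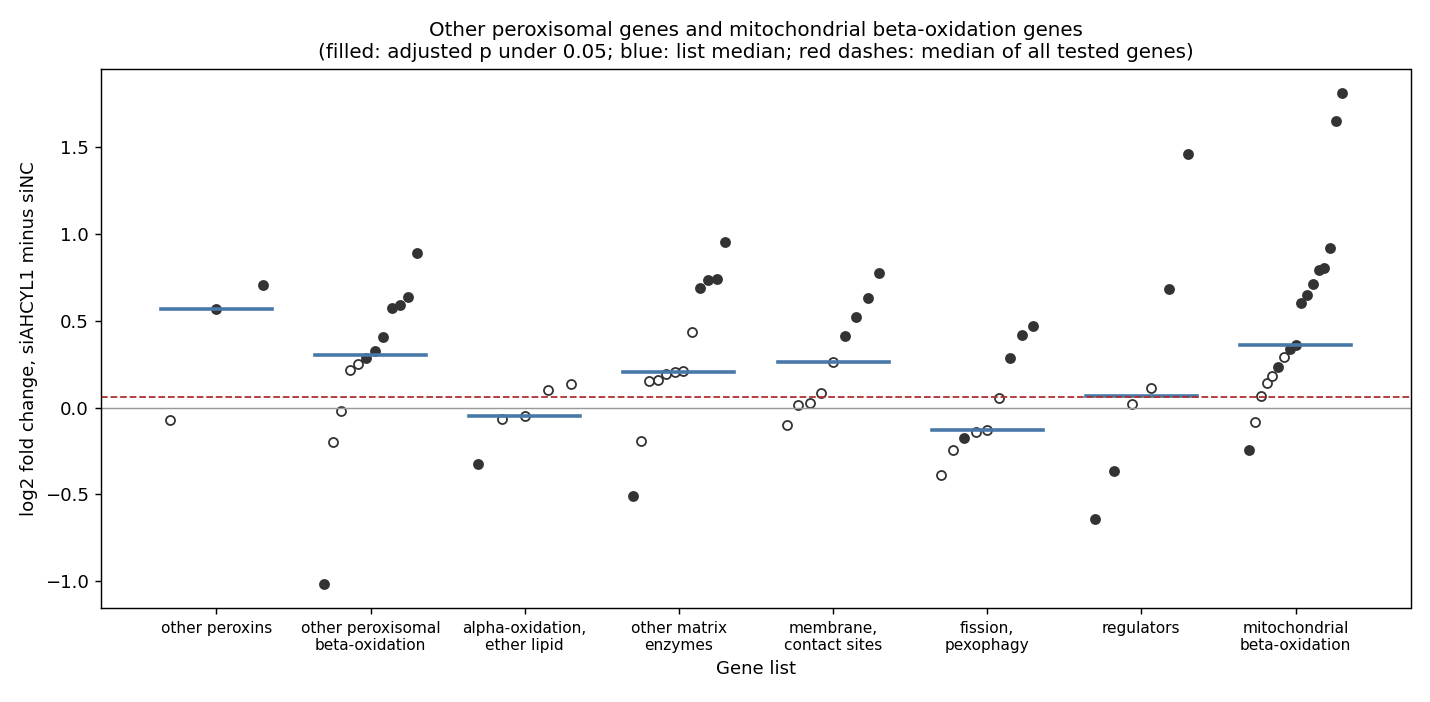
Log2 fold change of each tested gene outside the 27 members, by list, filled where the adjusted p was under 0.05, with the list median in blue and the median of all tested genes as a red dashed line. PPARA (1.46) among the regulators and ACADVL (1.81) and ECI1 (1.65) among the mitochondrial genes lie highest, and SLC27A2 (-1.01) lies lowest.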

How the data were processed

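The authors deposited 1 table of TPM per gene symbol and library; the tools STAR and RSEM and the build GRCh38 are named per the submitters' processing notes, with versions and annotation not given in the sources used here. Per the labels' protocols the libraries were non-directional. Every library sums to the same fixed TPM total within rounding, so depth and counting error are unknown and no count model was used; no 2 libraries held identical values.

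From these values log2(TPM + 1) was fitted with limma 3.58.1 in R 4.3.3 (group only, intensity trend, two-sided, Benjamini-Hochberg), for genes that reached 1 TPM in 3 or more of the 6 libraries. The fit was tested on simulated data. Column prefixes nc and si were read as siNC and, as the 1 other group, siAHCYL1. The members and lists were chosen with earlier results of these data known.

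Genes named were all members, AHCYL1, all regulators, and per other list up to 4 called genes by adjusted p and the call most against the list; markers were named after their values were seen. Some genes that the rule names are not reported here. MPV17L was not matched in the table. Locations and upstream sequences came from RefSeq (GRCh38.p14), and UTRs and exon overlaps from GENCODE release 29, with 1 coding transcript a gene (longest coding sequence). Alternatives were a pseudocount of 0.1, no filter, a 5 TPM filter, median-of-ratios scaling, quantile normalization, a replicate block, no trend with robust moderation, each library left out, and replicate 1 of both groups left out, since an earlier look had set it apart.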

Additional observations from a re-analysis of the deposited data

How the results depend on the processing

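No limit from depth can be given, because TPM keeps no read totals. The members called higher were 13 and ranged from 10 to 16 over 14 refits, 10 to 12 with 1 library left out and 12 without replicate 1 of both groups. Of the 14 called members 10 kept their call in all 14 refits. PEX13 and ABCD4 each lost it in 9 of the 14, SCP2 in 8 and PECR in 3. PEX13, ABCD4 and SCP2 lost it under both median-of-ratios scaling and quantile normalization. Of the 11 tested members not called, 4 were called in at least 1 refit, PEX3, PEX7, PEX10 and AGPS. No called gene named here changed sign, and 42 of 1588 single-gene refits changed sign with no call in either fit. Members called lower went from 1 to 2 under quantile normalization and likewise under median-of-ratios scaling, by AGPS. Other peroxisomal genes called lower, regulators included, went from 6 to 11 under quantile normalization, and were 4 to 7 when single libraries were dropped. Mitochondrial beta-oxidation genes called lower went from 1 to 2 under median-of-ratios scaling. The median of all genes was 0.06, 0.00 with median-of-ratios scaling and -0.01 with quantile normalization. For these changes the cause was not tested. The deviations of libraries that share a replicate number correlated at 0.233, 0.00092 and 0.154, and those of unlike numbers at -0.256 to 0.153. These values do not settle whether the replicate numbers are pairs, and the main fit did not take them as pairs. The count of changed genes over all tested was 6844 and became 7919 under the replicate block, members called higher went from 13 to 16 and AHCYL1 stayed at -3.44.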
